A study of Mus musculus with 8 samples.

Results

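The genes described here are 6 CC chemokines, Ccl2, Ccl5, Ccl7, Ccl12, Ccl20 and Ccl28, and the CX3C chemokine Cx3cl1, followed across mouse kidneys after ischaemic injury with or without injected small RNAs. The 7 genes were chosen with earlier results of these data known. Their probes were taken by gene name on the array: 9 probes carried 1 of the 7 names, out of 56605 distinct probes. All 7 genes and all 9 probes passed the filter on dim signals that left 21264 genes to be tested. Each of 8 mice gave RNA from the left kidney, removed 24 h after surgery and read on a 1-colour array, with 2 mice in each of 4 groups. Mimic mice (6 and 7) received 5 nmol of a miR-5100 mimic in 200 µl by the tail vein, bound to polyethylenimine nanoparticles at an N/P ratio of 6, and were operated on 2 days later. Control-miRNA mice (1 and 5) received 5 nmol of a control miRNA on the same carrier and schedule. IRI mice (30 and 34) were injured without injection. In all 3 injured groups the right kidney was taken out and the blood supply of the left one was stopped for 45 min before reperfusion. Sham mice (1 and 4) had only their abdomen opened, so clamping and loss of the other kidney cannot be told apart in any comparison with sham. No group analysed here had nanoparticles without RNA, or an injection without injury. Strain, sex and age are not given in the sources used here. Mice are numbered separately in the labels. P-values set a difference between groups against the spread of mice within groups. Unless stated, that spread is pooled over all 4 groups, so mice outside a comparison also enter its p.

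Chemokines are small secreted proteins that bind G protein-coupled receptors on leukocytes and direct where those cells move. CCL2, CCL7 and the mouse protein CCL12 are monocyte chemoattractant proteins (MCPs) that act through CCR2, CCL5 draws T cells and other leukocytes, CCL20 is the ligand of CCR6, and CCL28 is an epithelial chemokine that binds CCR10 and CCR3. CX3CL1 (fractalkine) is made as a membrane-bound protein that proteases can shed, and its receptor CX3CR1 marks monocytes, kidney macrophages and other leukocytes.

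Both injected RNAs are shown first because they set the 2 injected groups apart. The sequences are 5′ to 3′, with bases 2 to 8, the seed, in capitals.
miR-5100 mimic: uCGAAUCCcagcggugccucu
control miRNA: gGUUCGUAcguacacuguuca
The mimic is identical to the mature miR-5100 that RefSeq places at chr11:60728698-60728718 on the + strand of GRCm38.p6. Its seed was found in 1 of 1738 mature mouse miRNAs of that table, miR-5100 itself, and the seed of the control miRNA in 0 of 1738. No array probe carries the name miR-5100, and the amount that reached the kidney is unknown here.

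RefSeq promoter windows of GRCm38.p6, 250 bases before to 50 bases after the start of the gene, were given for 4 of the 7 genes, and they are shown so that genes that moved together or apart can be set side by side at the start site. Capitals mark matches to 2 motifs on either strand. The AP-1 motif was searched as TGANTCA. The TATA box was searched with the letters TATAAA, and no matches overlapped.
Ccl12 promoter, chr11:82101595-82101894, + strand: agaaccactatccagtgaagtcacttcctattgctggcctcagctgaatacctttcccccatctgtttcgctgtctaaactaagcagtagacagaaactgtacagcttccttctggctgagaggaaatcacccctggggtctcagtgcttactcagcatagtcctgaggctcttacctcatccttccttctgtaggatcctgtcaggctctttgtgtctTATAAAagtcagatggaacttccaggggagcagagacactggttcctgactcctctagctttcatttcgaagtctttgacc
Ccl20 promoter, chr1:83116516-83116815, + strand: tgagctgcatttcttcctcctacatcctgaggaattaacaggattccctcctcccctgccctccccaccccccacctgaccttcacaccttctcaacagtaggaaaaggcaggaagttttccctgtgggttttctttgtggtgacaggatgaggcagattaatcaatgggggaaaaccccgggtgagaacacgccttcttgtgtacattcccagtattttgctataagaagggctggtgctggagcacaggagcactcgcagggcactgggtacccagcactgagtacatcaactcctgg
Ccl28 promoter, chr13:119623569-119623868, + strand: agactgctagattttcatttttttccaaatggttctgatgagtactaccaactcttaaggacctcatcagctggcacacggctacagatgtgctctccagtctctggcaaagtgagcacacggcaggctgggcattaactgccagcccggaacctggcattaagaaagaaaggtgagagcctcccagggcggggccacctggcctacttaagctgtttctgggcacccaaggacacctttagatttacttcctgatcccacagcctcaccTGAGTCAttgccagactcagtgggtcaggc
Cx3cl1 promoter, chr8:94771930-94772229, + strand: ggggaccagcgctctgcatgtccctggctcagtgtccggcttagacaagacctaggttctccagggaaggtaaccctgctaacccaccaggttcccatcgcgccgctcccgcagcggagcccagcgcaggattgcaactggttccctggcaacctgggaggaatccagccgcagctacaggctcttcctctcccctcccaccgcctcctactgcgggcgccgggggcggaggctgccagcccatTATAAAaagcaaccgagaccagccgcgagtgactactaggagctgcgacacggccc
The Ccl12 and Cx3cl1 windows held the letters TATAAA, at bases 220 to 225 and 245 to 250. These matches begin 31 bases before the start in Ccl12 and 6 bases before it in Cx3cl1. Whether either acts as a TATA box was not tested. The Ccl20 window is shown whole, with no match to either. The Ccl28 window held the AP-1 motif at bases 271 to 277, after the start. Among all 32851 promoter windows of the same length, 7.81% held the AP-1 motif and 13.6% the letters TATAAA. Ccl2, Ccl5 and Ccl7 were not matched.

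In the RefSeq order of genes, Ccl2 and Ccl7 are neighbours on chromosome 11, Ccl12 follows after Ccl11, and Ccl5 lies further along, next to Ccl9. Cx3cl1 lies between Ccl22 and Ccl17 on chromosome 8. Probe positions in the files are those of build mm9: Ccl2 chr11:81850650-81850709 and Ccl7 chr11:81860656-81860715 on the + strand, Ccl12 chr11:81916710-81916769 on the + strand, Ccl5 chr11:83339296-83339355 on the - strand, Ccl20 chr1:83115500-83115559 on the + strand and the brighter Cx3cl1 probe chr8:97306185-97306244 on the + strand. The brighter Ccl28 probe was placed on an unplaced part of chromosome 13, at chr13_random:363031-363090 on the - strand. The exon or UTR that each probe covers was not annotated here. Each probe has 60 bases, and the longest run it shared with a probe of any other gene was 13 to 16 bases, among the MCP genes too. A level below is log2 processed signal with the 75th percentile of its array subtracted, so 0 is the brightness of that percentile. Levels are compared for 1 gene between kidneys, never between genes.

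The arrays had 53.2% to 58.8% of their 59305 spots well above background and 0 saturated spots. Their 75th percentile signal was 308 and 242 in mimic, 500 and 416 in control-miRNA, 468 and 600 in IRI and 408 and 476 in sham kidneys, so the mimic arrays were the dimmest. All arrays shared 1 slide and 1 scan time. Mimic and control-miRNA arrays lay in slide row 2 and IRI and sham arrays in row 1, so slide row and injection cannot be told apart. Mimic and sham arrays lay in slide columns 1 and 2, and control-miRNA and IRI arrays in columns 3 and 4. Slide position and group therefore cannot be told apart in any comparison. Kidney markers were present: 12 of 12 proximal tubule genes were tested, with a mean log2 level of 4.52 to 5.04 in the injured kidneys and 6.63 and 6.68 in sham kidneys. All 12 tubular injury genes tested were higher than in sham in each injured group.

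Against sham, Cx3cl1 was called higher in all 3 injured groups, Ccl20 in IRI kidneys, and the 3 MCP genes Ccl2, Ccl7 and Ccl12 in mimic kidneys. Ccl2, Ccl7 and Ccl20 also had positive differences, without a call, in the other injured groups. Ccl12 did so in IRI kidneys (1.58) and was near sham in control-miRNA kidneys (0.09). No chemokine was called between injured groups, so these calls do not set those groups apart. In mimic against sham 4 of 7 chemokines were called higher, where 15.2% of all genes were called higher, 12.8% lower and 28.0% at all. The 4 include Ccl7, which was not well above background in either sham kidney and passed the filter through the mimic and IRI groups. In control miRNA against sham 1 of 7 was called higher, against 9.55% of all genes higher, 7.79% lower and 17.3% at all. In IRI against sham 2 of 7 were called higher, against 9.45% higher, 8.85% lower and 18.3% at all. None of the 7 was called lower in any of these comparisons. The median log2 difference of the 7 was 2.29 in mimic, 0.96 in control-miRNA and 1.52 in IRI kidneys, beside 0.11, -0.05 and -0.08 over all genes tested. Since the 7 were chosen with earlier results of these data known, their counts and medians are a description and not a test of the group. These 3 comparisons share the sham arrays. A gene was called where limma's p, adjusted by Benjamini-Hochberg over all 21264 genes, was under 0.05.

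**Figure D1:**
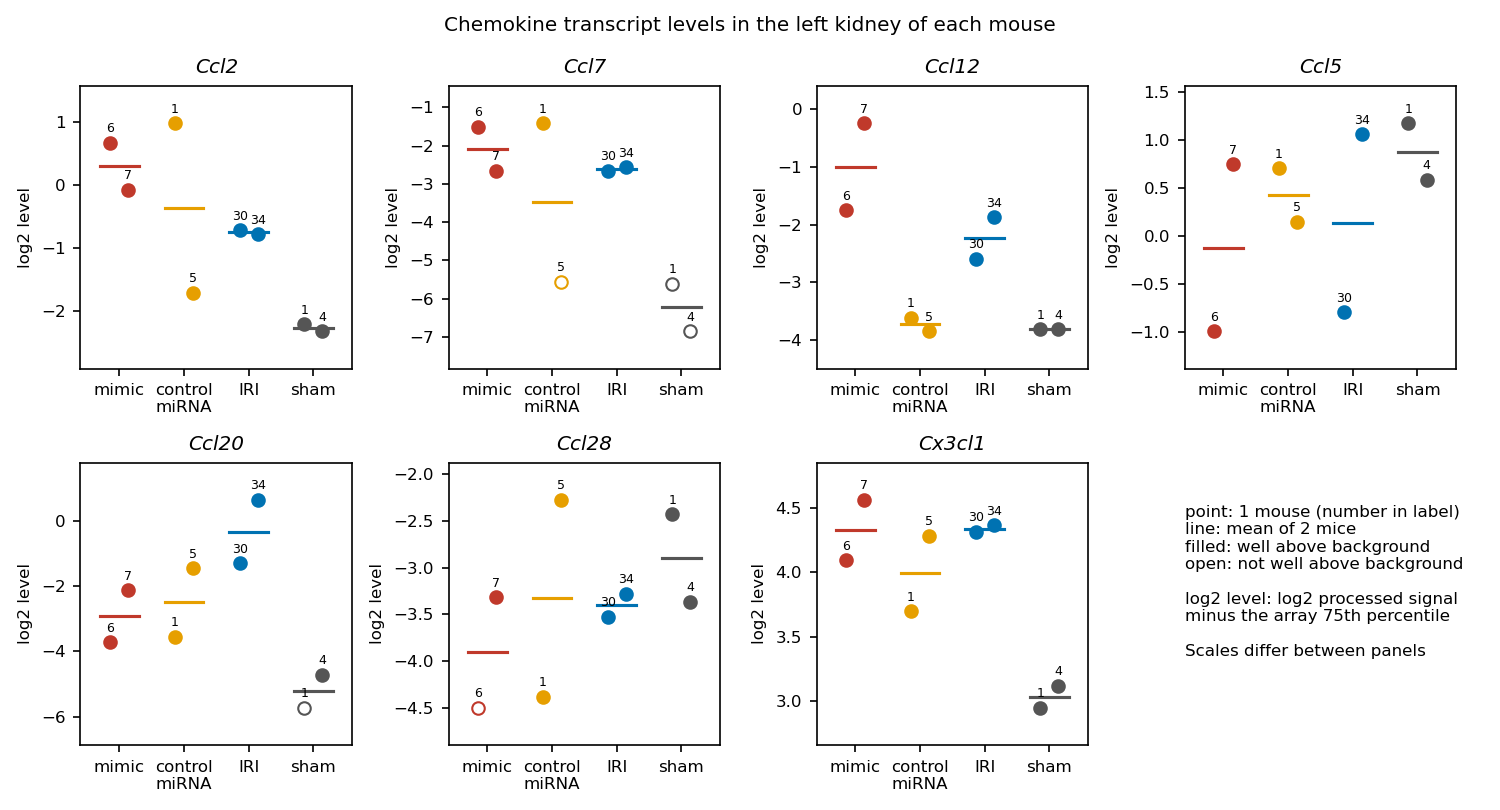
Levels of the 7 chemokines in each kidney (log2 processed signal less the 75th percentile of the array, own scale per panel), with groups in the order mimic, control miRNA, IRI and sham, 1 point per mouse and a line at the mean of 2 mice. Cx3cl1 sits at 2.95 and 3.12 in sham kidneys and at 3.70 or more in every injured one, and Ccl12 in control-miRNA kidneys lies at the sham level.

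Ccl2, the prototype MCP, had log2 levels of 0.67 and -0.07 in mimic kidneys, 0.98 and -1.71 in control-miRNA kidneys, -0.72 and -0.78 in IRI kidneys and -2.21 and -2.33 in sham kidneys. Every injured kidney lay above both sham kidneys, the IRI pair lay close together, and the control-miRNA pair held both the highest and the lowest injured kidney. The log2 difference from sham was 2.57 ± 0.77 in mimic (SE, 5.94-fold, adjusted p = 0.0475), 1.91 ± 0.77 in control-miRNA (adjusted p = 0.135) and 1.52 ± 0.77 in IRI kidneys (adjusted p = 0.214). Ccl2 thus passed the test in mimic kidneys, and that call was lost when any 1 of the 4 arrays was left out (2.20 to 2.94, adjusted p 0.0872 to 0.185). The control-miRNA difference was 3.25 without mouse 5 (adjusted p = 0.00868) and 0.56 without mouse 1 (adjusted p = 0.384). With only the IRI and sham arrays in the fit the IRI difference had an adjusted p of 0.00331. That was the 1 of 7 other settings that called it, with adjusted p up to 0.570 in the rest.

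Ccl7, also called MCP-3, had log2 levels of -1.51 and -2.65 in mimic kidneys, -1.42 and -5.55 in control-miRNA kidneys, -2.66 and -2.57 in IRI kidneys and -5.61 and -6.85 in sham kidneys. It was not well above background in either sham kidney or in control-miRNA mouse 5, and well above it in the other 5 kidneys. The sham level is therefore only a bound. With the sham values as read, Ccl7 was 4.15 ± 1.22 higher in mimic than in sham kidneys (adjusted p = 0.0447), which passed the test. As a bound, which was not itself tested, it was at least 6.14-fold higher. The log2 difference was 3.62 ± 1.22 in IRI kidneys (adjusted p = 0.0844), or at least 4.24-fold as a bound. In control-miRNA kidneys it was 2.75 ± 1.22 (adjusted p = 0.166), where 1 of 2 arrays measured the gene. No bound is given there, since mouse 5 was not well above background. The bound sets the mean of the bright group against a dim group whose arrays each count at their own value or at their lowest signal well above background, whichever is higher. The mimic call was lost without any 1 of its 4 arrays (adjusted p 0.0854 to 0.208), and the control-miRNA difference was called without mouse 5 (adjusted p = 0.0133) and not without mouse 1 (adjusted p = 0.602). The mimic call held in 2 of 7 other settings of background, normalization, filter or fit. With only the IRI and sham arrays in the fit the IRI difference had an adjusted p of 0.00663. That was the 1 of 7 other settings that called it, with adjusted p up to 0.281 in the rest.

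Ccl2 and Ccl7 were high in the same kidneys. Their levels had a Pearson r of 0.947 over the 8 arrays, as a description of kidneys that share 4 groups. Control-miRNA mouse 1 had the highest level of both genes among the 8 kidneys, and mimic mouse 6 the second highest. Control-miRNA mouse 5 and both sham kidneys had the lowest Ccl2, and in these 3 kidneys Ccl7 was not well above background, so their Ccl7 levels have no order. Ccl12, near both genes on the chromosome, had an r of 0.507 with Ccl2 and 0.589 with Ccl7, and differed most from them in control-miRNA mouse 1.

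**Figure D2:**
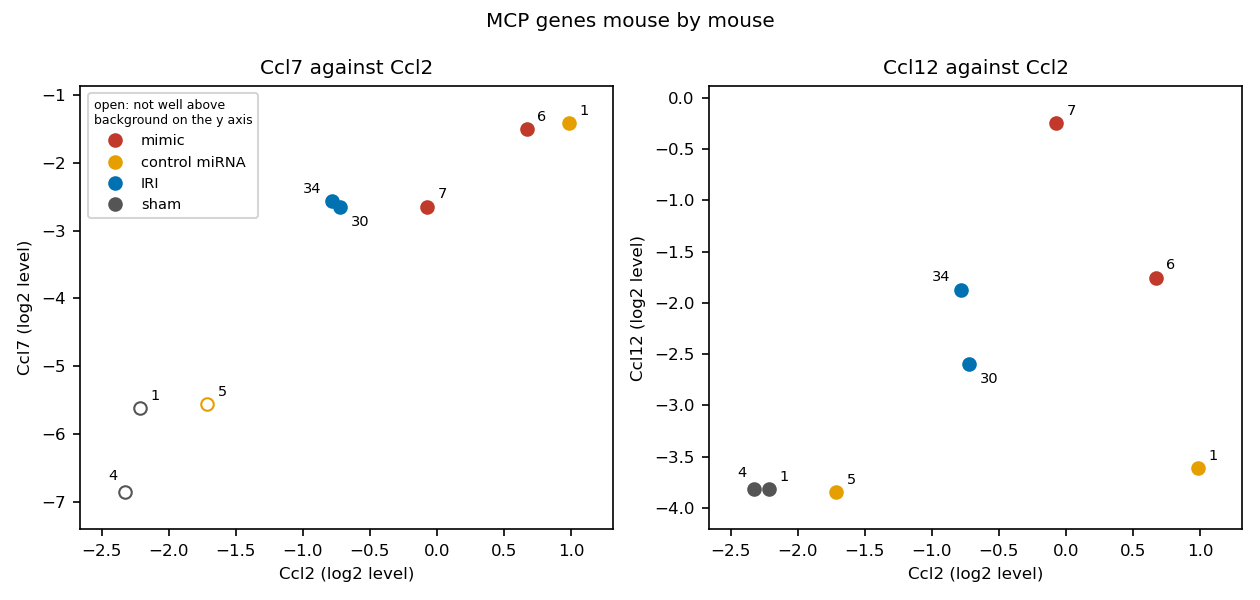
Ccl7 (left) and Ccl12 (right) against Ccl2 in the 8 kidneys, as log2 levels, coloured by group, with the mouse number beside each point and open points where the gene on the y axis was not well above background. Ccl7 is well above background in the 5 kidneys with the highest Ccl2, while control-miRNA mouse 1, highest for Ccl2 at 0.98, has Ccl12 at -3.61, near the sham kidneys.

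Ccl12, the mouse MCP-5, had log2 levels of -1.75 and -0.24 in mimic kidneys, -3.61 and -3.85 in control-miRNA kidneys, -2.59 and -1.87 in IRI kidneys and -3.82 and -3.82 in sham kidneys, and was well above background in all 8. Both mimic kidneys lay above all others, the IRI pair came next, and the control-miRNA and sham kidneys overlapped at the bottom. In mimic kidneys Ccl12 rose by 2.82 ± 0.48 over sham (7.06-fold, adjusted p = 0.00883). The difference was 1.58 ± 0.48 in IRI kidneys (adjusted p = 0.0631) and 0.09 ± 0.48 in control-miRNA kidneys (adjusted p = 0.918, with an unadjusted 95% interval of -1.05 to 1.22). The mimic call was lost without sham mouse 1 (adjusted p = 0.0509) and without sham mouse 4 (adjusted p = 0.0611), and it held without either mimic array and with normexp background correction and quantile normalization, at a smaller 1.58 (adjusted p = 0.0189). With only the IRI and sham arrays in the fit the IRI difference had an adjusted p of 0.0153. That was the 1 of 7 other settings that called it, with adjusted p up to 0.179 in the rest.

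Ccl20, the chemokine ligand of CCR6, had log2 levels of -3.72 and -2.13 in mimic kidneys, -3.55 and -1.44 in control-miRNA kidneys, -1.30 and 0.64 in IRI kidneys and -5.72 and -4.71 in sham kidneys. Sham mouse 1 was not well above background. Every injured kidney lay above both sham kidneys, and the IRI kidneys lay above all others, with 1 mouse of each injured pair well above its partner. Ccl20 rose in IRI kidneys over sham, with a log2 difference of 4.88 ± 0.94 (adjusted p = 0.0166), where 1 of 2 sham arrays measured the gene. With normexp it was 2.56 (adjusted p = 0.0212). The difference was 2.29 ± 0.94 in mimic (adjusted p = 0.107) and 2.72 ± 0.94 in control-miRNA kidneys (adjusted p = 0.0912). The IRI call held without IRI mouse 30 (5.85, adjusted p = 0.0400) and was lost without IRI mouse 34 (3.91, 0.0908), sham mouse 1 (4.38, 0.106) or sham mouse 4 (5.39, 0.0633).

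Cx3cl1, the membrane-bound CX3C chemokine, had log2 levels of 4.10 and 4.56 in mimic kidneys, 3.70 and 4.29 in control-miRNA kidneys, 4.32 and 4.37 in IRI kidneys and 2.95 and 3.12 in sham kidneys. All 6 injured kidneys lay above both sham kidneys, and mice within a group differed by at most 0.59. Cx3cl1 rose by 1.30 ± 0.25 in mimic (2.45-fold, adjusted p = 0.0133), by 0.96 ± 0.25 in control-miRNA (1.94-fold, adjusted p = 0.0443) and by 1.31 ± 0.25 in IRI kidneys (2.47-fold, adjusted p = 0.0170) over sham. Without 1 array the difference stayed between 1.06 and 1.53 in mimic, 0.67 and 1.25 in control-miRNA and 1.22 and 1.39 in IRI kidneys. The mimic call was lost without sham mouse 1 (adjusted p = 0.0795) or sham mouse 4 (0.0736), and the control-miRNA and IRI calls were lost without any 1 of their 4 arrays (0.0581 to 0.217 and 0.0812 to 0.116).

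A second, dim Cx3cl1 probe lies elsewhere in the gene, spans chr8:97296213-97301245 and was designed to an Ensembl transcript. It was well above background on 6 of 8 arrays. Its log2 difference from sham was 1.05 in mimic, 0.34 in control-miRNA and 0.27 in IRI kidneys, of the same sign as the brighter probe and smaller. With the mean of both probes Cx3cl1 was not called in control-miRNA (0.65, adjusted p = 0.188) or IRI kidneys (0.79, adjusted p = 0.119). The control-miRNA call held in 2 of 7 other settings (adjusted p 0.0323 to 0.188), and the mimic and IRI calls in 6 of 7 each.

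Ccl5, known as RANTES, had log2 levels of -0.995 and 0.75 in mimic kidneys, 0.71 and 0.15 in control-miRNA kidneys, -0.80 and 1.06 in IRI kidneys and 1.18 and 0.59 in sham kidneys. The groups overlapped, and the 2 mice of the mimic and IRI groups lay 1.75 and 1.86 apart. The difference from sham was -1.003 ± 0.74 in mimic (adjusted p = 0.331, interval -2.76 to 0.75), -0.45 ± 0.74 in control-miRNA (adjusted p = 0.702) and -0.75 ± 0.74 in IRI kidneys (adjusted p = 0.505, interval -2.50 to 1.00). No change of Ccl5 passed the test, and the intervals leave room for differences of either sign.

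Ccl28, the mucosal epithelial chemokine, had log2 levels of -4.50 and -3.32 in mimic kidneys, -4.38 and -2.28 in control-miRNA kidneys, -3.52 and -3.28 in IRI kidneys and -2.43 and -3.36 in sham kidneys. It was dim throughout, mimic mouse 6 was not well above background, and the groups overlapped. The difference from sham was -1.01 ± 0.72 in mimic (adjusted p = 0.315), -0.43 ± 0.72 in control-miRNA (adjusted p = 0.709) and -0.50 ± 0.72 in IRI kidneys (adjusted p = 0.648). A second Ccl28 probe, well above background on 4 of 8 arrays, gave -1.01, -0.25 and -0.96 in the same order. Across the 8 arrays Ccl28 had an r of -0.827 with Ccl2, the lowest of the 21 pairs of these chemokines, and Ccl20 one of 0.847 with Cx3cl1.

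**Figure D3:**
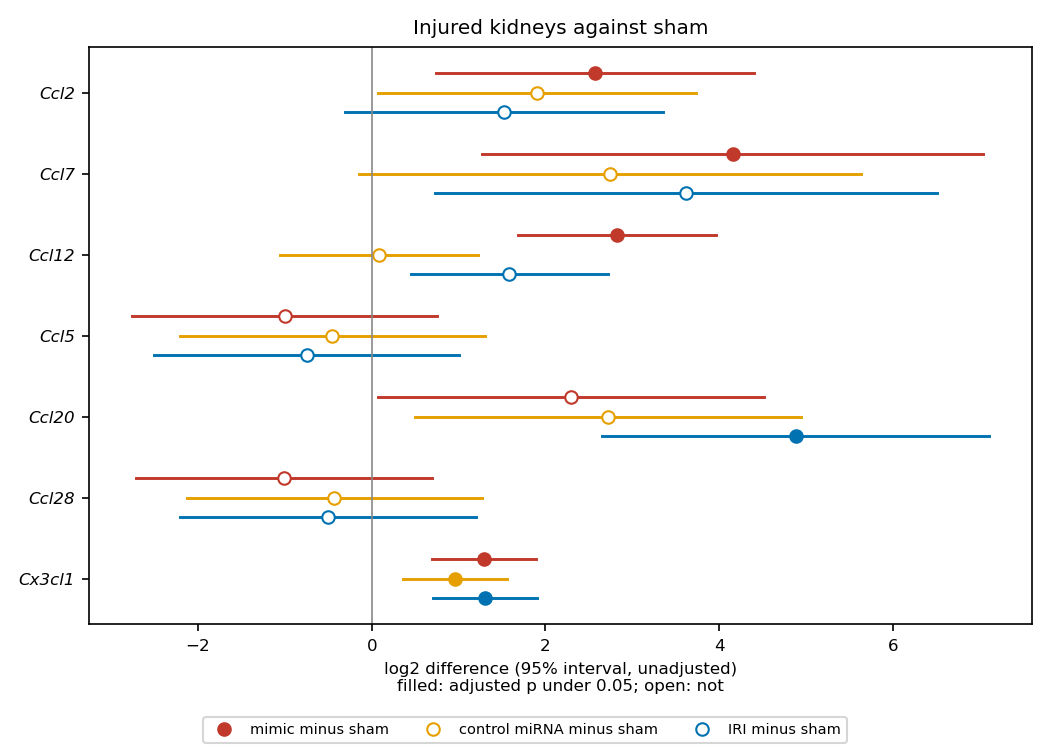
Log2 difference of each chemokine from sham in mimic, control-miRNA and IRI kidneys, with unadjusted 95% intervals from limma and filled points where the adjusted p is under 0.05. Cx3cl1 has the narrowest intervals and is filled in all 3 comparisons, and Ccl12 in control-miRNA kidneys is centred near 0, at 0.09.

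The number of chemokines whose groups did not overlap was 5 of 7 in mimic, 4 of 7 in control-miRNA and 5 of 7 in IRI kidneys against sham. Over all genes the shares were 68.8%, 68.7% and 71.8%, so these counts lie near the background of groups of 2. All of the chemokines that did not overlap were higher than in sham, and they were Ccl2, Ccl7, Ccl20 and Cx3cl1 in each comparison, with Ccl12 in mimic and IRI kidneys. In control-miRNA kidneys the Ccl7 separation lies between values not well above background, so 3 of the 4 rest on measured levels.

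Among the injured groups, Ccl12 and Ccl20 were the chemokines whose levels stood furthest apart, in different groups, and no chemokine passed the test. In mimic against control miRNA 0 of 7 were called, and over all genes 0 of 21264 (0% called by limma), while 7188 genes had an unadjusted p under 0.05. Ccl12 was 2.73 ± 0.48 higher in mimic than in control-miRNA kidneys (6.65-fold, unadjusted p = 0.000792, adjusted p = 0.0662, unadjusted interval 1.60 to 3.87). It was the 1 chemokine of 7 whose mimic and control-miRNA kidneys did not overlap, as 59.2% of all genes did not. Without mimic mouse 6, the Ccl12 difference was 3.49 (adjusted p = 0.0108), in a fit that called 6318 genes, and without mimic mouse 7 it was 1.98 (adjusted p = 0.164), in a fit that called 0. The Ccl12 difference was called in 0 of 7 other settings (adjusted p 0.0513 or more). Among these, normexp background correction with quantile normalization called 1400 genes. The other 6 chemokines differed by -0.58 to 1.41, with adjusted p of 0.371 to 0.768. Cx3cl1 differed by 0.34 ± 0.25 (interval -0.26 to 0.94).

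In mimic against IRI 0 of 7 chemokines were called, against 16.0% of all genes (10.5% higher, 5.53% lower). Ccl12 was 1.23 ± 0.48 higher in mimic than in IRI kidneys (adjusted p = 0.105), and the difference was 1.99 without mimic mouse 6 (adjusted p = 0.0118) and 0.48 without mimic mouse 7 (adjusted p = 0.334). Ccl20 was -2.59 ± 0.94 in mimic minus IRI kidneys (adjusted p = 0.0902, interval -4.81 to -0.36). Ccl2, Ccl12 and Ccl20 were the 3 chemokines of 7 whose mimic and IRI kidneys did not overlap, Ccl2 and Ccl12 higher and Ccl20 lower in mimic, where 67.2% of all genes did not overlap. Cx3cl1 differed by -0.01 ± 0.25 (interval -0.61 to 0.59). Of the 3409 genes called in mimic against IRI 2234 were higher, a split that turned to 1185 of 2291 with quantile normalization and 1823 of 3611 with normexp.

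In control miRNA against IRI 0 of 7 chemokines and 0% of all genes were called by limma, and 870 genes had an unadjusted p under 0.05. Ccl12 was -1.50 ± 0.48 in control-miRNA minus IRI kidneys (adjusted p = 0.952, unadjusted interval -2.64 to -0.36), and Ccl20 was -2.16 ± 0.94 (interval -4.39 to 0.06). Ccl12, Ccl20 and Cx3cl1 were the 3 of 7 that did not overlap, all lower in control-miRNA kidneys, as 32.6% of all genes did not. The median difference of the 7 chemokines was -0.35, beside 0.01 over all genes. Since the same injured arrays enter these comparisons and those with sham, they are not independent.

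**Figure D4:**
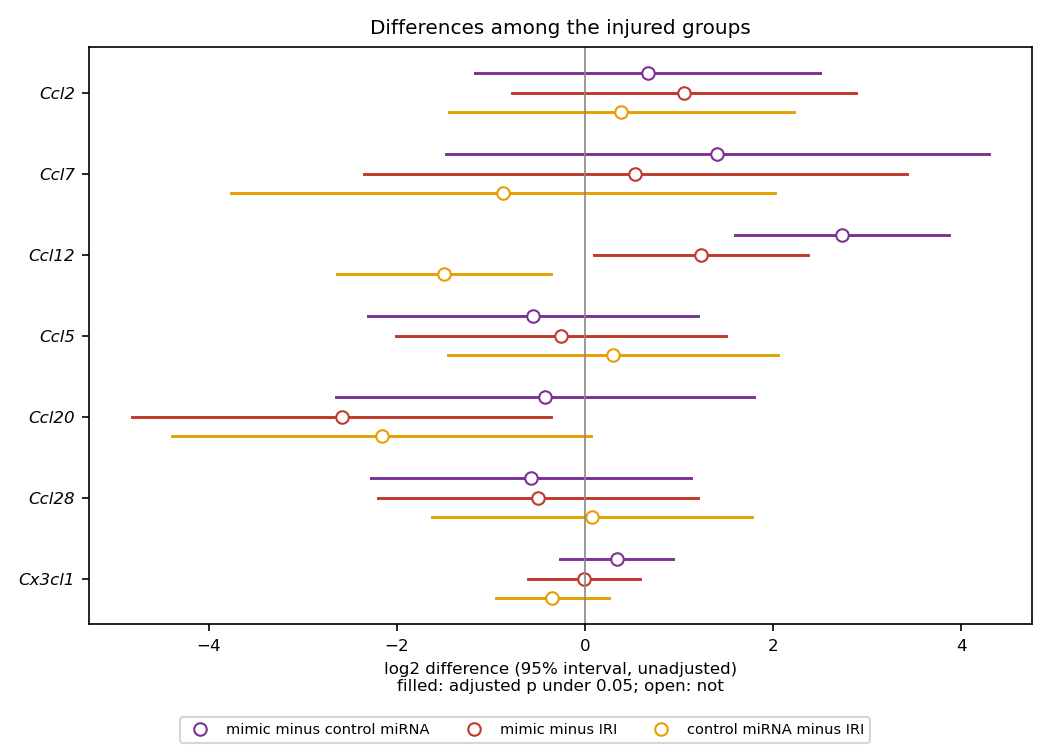
Log2 difference of each chemokine between injured groups (mimic minus control miRNA, mimic minus IRI, control miRNA minus IRI), with unadjusted 95% intervals from limma; all points are open, since no adjusted p is under 0.05. Ccl12 is 2.73 higher in mimic than in control-miRNA kidneys, and Ccl20 differs by -2.59 and -2.16 from IRI kidneys in the 2 injected groups.

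The receptors of these ligands were mostly dim. Among the CC and CX3C receptors reported here 4 were tested, Ccr1, Ccr1l1, Ccr4, Ccr9 and Ccr10 were well above background on no array, and Ccr3 and Ccr6 on 1 array each. Ccr2, the MCP receptor, had log2 levels of -2.71 and -2.52 in mimic, -2.84 and -3.10 in control-miRNA, -3.09 and -3.31 in IRI and -2.59 and -2.51 in sham kidneys. Mimic and sham kidneys overlapped, and the IRI kidneys were among the lowest. Ccr2 fell by 0.65 in IRI kidneys (SE 0.18, adjusted p = 0.0482), and differed by -0.42 in control-miRNA (adjusted p = 0.151) and -0.06 in mimic kidneys (adjusted p = 0.801) from sham. That call was lost without any 1 of the 4 arrays (adjusted p 0.122 to 0.241) and held in 2 of 7 other settings, with normexp at -0.29 (adjusted p = 0.114).

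Cx3cr1, the receptor of CX3CL1, had log2 levels of -0.62 and 0.05 in mimic, -1.35 and -0.43 in control-miRNA, -1.06 and -0.95 in IRI and -0.09 and -0.54 in sham kidneys, and no difference from sham passed the test (adjusted p 0.224 to 0.953). Its ligand gene Cx3cl1 had risen in all 3 injured groups. Ccr8, the receptor of CCL1, was not well above background in either sham kidney. With the sham values as read, it was 2.40 higher in mimic (adjusted p = 0.0306) and 2.67 higher in control-miRNA kidneys (adjusted p = 0.0300). In kidneys of IRI mice it was 3.02 higher (adjusted p = 0.0196). As bounds, which were not themselves tested, Ccr8 was at least 4.29-fold, 5.20-fold and 6.60-fold higher in the same order. Its mimic and control-miRNA calls each held in 1 of 4 fits without 1 array (adjusted p 0.0198 to 0.147 and 0.0332 to 0.149), and its IRI call in 0 of 4 (0.0643 to 0.110). Under the 7 other settings the mimic call held in 1, the control-miRNA call in 5 and the IRI call in 6. Ccr7, the lymph node homing receptor, was not called. Of 5 atypical chemokine receptors tested, which take up chemokines without classical signalling, 0 were called.

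Other CC ligands did not follow one direction. Of 17 listed, 15 were on the array and 9 were tested, and Ccl8, Ccl22 and Ccl26 were well above background on no array. Against sham 2 were higher and 1 lower in mimic, 1 higher and 2 lower in control-miRNA, and 0 higher and 1 lower in IRI kidneys, with medians of 0.32, -0.05 and -0.20. Of all genes, 15.2%, 9.55% and 9.45% were called higher and 12.8%, 7.79% and 8.85% lower in the same order. Ccl19, a ligand of CCR7, fell in all 3: by 1.42 in mimic (adjusted p = 0.0280), by 2.61 in control-miRNA (adjusted p = 0.00595) and by 2.50 in IRI kidneys (adjusted p = 0.00615). Its control-miRNA call held without any 1 array, its IRI call in 2 of 4 such fits and its mimic call in 1 of 4. Ccl9, which binds CCR1 in mice, rose by 2.45 in mimic (adjusted p = 0.0345) and by 2.60 in control-miRNA kidneys (adjusted p = 0.0390). Ccl17, a ligand of CCR4 and a neighbour of Cx3cl1, was higher in mimic kidneys by 1.94 (adjusted p = 0.0382), where 1 of 2 sham arrays measured it, and that call held in 1 of 7 other settings, with differences down to 0.59.

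Ccl4, the chemokine MIP-1 beta, was lower in control-miRNA kidneys than in sham while the mimic and sham kidneys overlapped. Its log2 levels were -2.10 and -1.37 in mimic, -4.79 and -4.07 in control-miRNA, -4.01 and -3.26 in IRI and -1.89 and -2.54 in sham kidneys. The control-miRNA and IRI kidneys lay below all mimic and sham kidneys. Ccl4 fell by 2.21 in control-miRNA kidneys against sham (adjusted p = 0.0163) and differed by -1.42 in IRI kidneys (adjusted p = 0.0564). It was 1.90 ± 0.41 higher in mimic than in IRI kidneys (adjusted p = 0.0387) and 2.70 ± 0.41 higher than in control-miRNA kidneys (adjusted p = 0.0662). Leaving out 1 array kept the call against sham in 1 of 4 fits (adjusted p 0.0295 to 0.110) and the call against IRI in 1 of 4 (0.0206 to 0.221). Ccl4 was measured on 1 of 2 control-miRNA arrays. A second Ccl4 probe gave -1.92 in control-miRNA and -1.09 in IRI kidneys against sham. The Ccl9, Ccl17 and Ccr8 calls rest on similarly few fits: Ccl9 held in 1 of 4 in each comparison (0.0262 to 0.150 in mimic and 0.0232 to 0.165 in control-miRNA kidneys) and Ccl17 in 1 of 4 (0.0180 to 0.169).

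**Figure D5:**
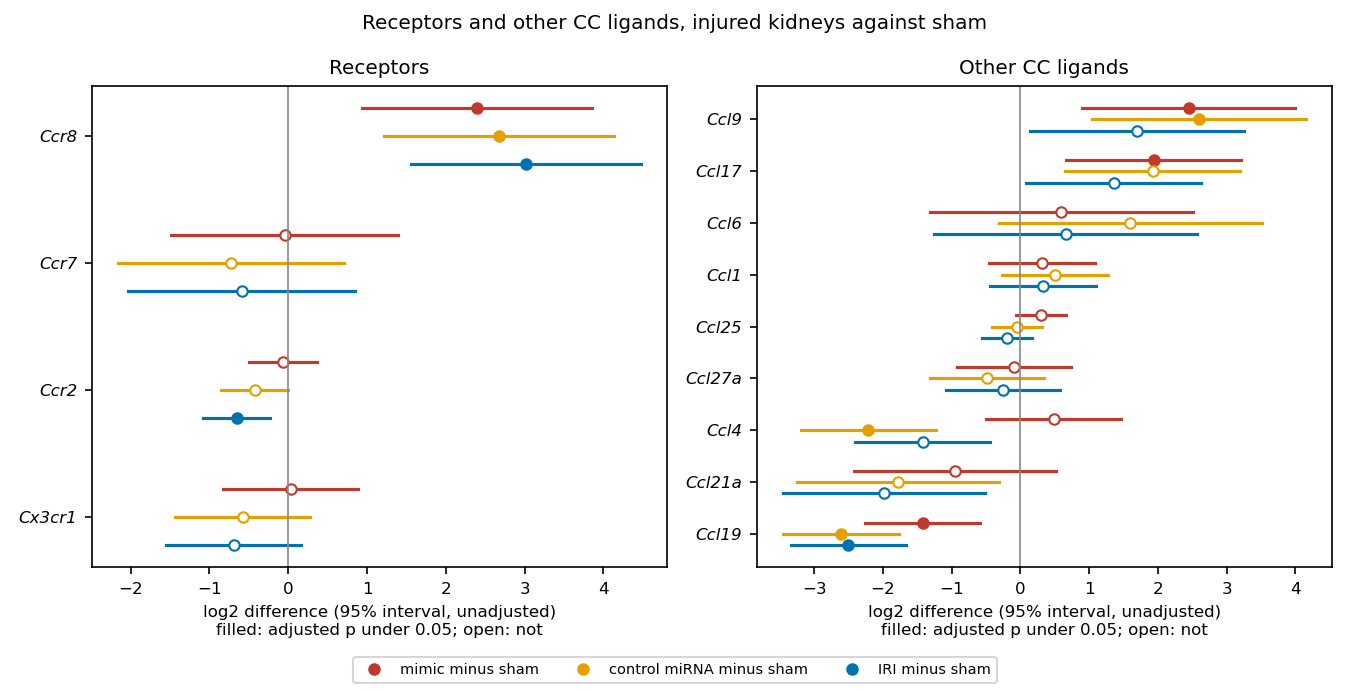
Log2 difference from sham of the 4 tested receptors (left) and of the 9 other CC ligands tested (right) in mimic, control-miRNA and IRI kidneys, with unadjusted 95% intervals from limma and filled points where the adjusted p is under 0.05. Ccr8 is filled on the higher side and Ccl19 on the lower side in all 3 comparisons, and Ccl4 is at 0.48 in mimic kidneys but at -2.21 and -1.42 in control-miRNA and IRI kidneys.

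Genes that act before and after these ligands were read from lists. Over all genes 15.2%, 9.55% and 9.45% were called higher and 12.8%, 7.79% and 8.85% lower in mimic, control-miRNA and IRI kidneys against sham. Of 12 genes of NF-kB subunits and inhibitors, the factor that drives many inflammatory chemokine genes, 8 were higher in mimic, 9 in control-miRNA and 10 in IRI kidneys than in sham and 0 were lower, with medians of 0.90, 0.90 and 1.12. Nfkbiz, which encodes a nuclear IkB protein, rose by 1.89, 2.26 and 2.75 (adjusted p = 0.00420, 0.00298 and 0.00145), and Nfkb2, the p100 subunit, by 2.21, 1.68 and 2.15 (0.00181, 0.00457 and 0.00184) in mimic, control-miRNA and IRI kidneys. Among the injured groups 0 of the 12 were called. Of 8 interferon regulatory factor genes tested 1 was higher and 1 lower in mimic, 1 higher in control-miRNA, and 1 higher and 1 lower in IRI kidneys than in sham. Adam10, a protease that sheds CX3CL1, rose by 0.59 in control-miRNA (adjusted p = 0.0393) and by 0.65 in IRI kidneys (adjusted p = 0.0294), and differed by 0.33 in mimic kidneys (adjusted p = 0.134). A second Adam10 probe gave 0.82 in mimic, 0.48 in control-miRNA and 0.59 in IRI kidneys, so the order of the groups depends on the probe. Both Adam10 calls were lost without any 1 array (adjusted p 0.0908 to 0.196 and 0.117 to 0.166). The Adam17 differences did not pass the test.

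Markers of cells that make or receive these chemokines were read beside the shares over all genes. In mimic kidneys 15.2% of all genes were called higher than in sham and 12.8% lower. The shares were 9.55% and 7.79% in control-miRNA kidneys, and 9.45% and 8.85% in IRI kidneys. In whole-kidney RNA, fewer cells of a type and less RNA per cell cannot be told apart. Of 15 monocyte and macrophage markers tested 3 were higher and 2 lower in mimic, 3 higher and 1 lower in control-miRNA, and 3 higher and 3 lower in IRI kidneys than in sham. Cd68, a lysosomal protein, rose by 3.24, 2.58 and 2.70 and Cd14, a co-receptor for lipopolysaccharide, by 3.12, 3.35 and 4.21 in mimic, control-miRNA and IRI kidneys, each called also without any 1 array. Csf1r, the receptor of the macrophage growth factor CSF1, fell by 0.79, 1.32 and 1.70 in the same order (adjusted p = 0.0311, 0.00894 and 0.00360), and is named, as are the next 2, after its values were seen. In IRI kidneys the integrin gene Itgam fell by 2.05 (adjusted p = 0.0304) and Adgre1, which encodes F4/80, by 1.13 (adjusted p = 0.0236). The median difference of the 15 was 0.34 in mimic, -0.03 in control-miRNA and -0.47 in IRI kidneys, beside 0.11, -0.05 and -0.08 over all genes. Cd163 was well above background on no array. The mean log2 level of the list was 1.00 and 0.90 in mimic, 0.67 and 0.46 in control-miRNA, 0.32 and 0.40 in IRI and 0.47 and 0.23 in sham kidneys, highest in the mimic kidneys that also had the highest Ccl12. Elsewhere the order of the list means and that of Ccl12 differed. Each control-miRNA kidney had a higher list mean than either IRI kidney, yet a lower Ccl12. Within the mimic pair, mouse 6 had the higher list mean and the lower Ccl12. Whether the macrophage markers account for any of the Ccl12 levels was not tested.

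Of 9 T cell markers tested 0 were higher and 1, 2 and 2 lower in mimic, control-miRNA and IRI kidneys than in sham, and of 6 NK cell markers 2, 0 and 0 were higher and 3, 2 and 2 lower. In the same order, 15.2%, 9.55% and 9.45% of all genes were called higher and 12.8%, 7.79% and 8.85% lower. Cd8a and Ncr1 were well above background on no array. The mean T cell list level was -2.77 and -1.99 in mimic, -3.22 and -2.74 in control-miRNA, -2.90 and -2.68 in IRI and -1.49 and -1.97 in sham kidneys. Mimic mouse 6 and IRI mouse 30, the kidneys with the lowest Ccl5, also had the lower T cell level of their pair, while control-miRNA mouse 5 had the lower Ccl5 and the higher T cell level of its pair, and whether the one accounts for the other was not tested. Of 12 endothelial markers 0 were higher in any injured group against sham, and 0, 1 and 2 were lower in mimic, control-miRNA and IRI kidneys. Of 9 neutrophil markers 4, 5 and 4 were higher and 0 lower. In mimic against IRI 5 macrophage, 6 endothelial and 6 fibroblast and pericyte markers were higher and 1, 0 and 0 lower, of 15, 12 and 9 tested, beside 10.5% of all genes higher. That comparison called 0 genes with array brightness as a covariate, with only the arrays of both groups, and without IRI mouse 30, IRI mouse 34 or mimic mouse 7.

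The genes whose 8 levels were most like those of each chemokine, among 14660 genes with a symbol, were picked by Pearson r as a description. They were Socs1 (0.998), Trim12c (0.986) and Lyar (0.980) for Ccl12, Ddit4l (0.980), Soat2 (0.973) and Mospd3 (0.969) for Ccl2, and Akr1b3 (0.979), Inhba (0.974) and Dubr (0.958) for Ccl7. For Ccl20 they were Tifa (0.981), Sugt1 (0.978) and Smtnl2 (0.975), and for Cx3cl1 Alkbh2 (0.991), Hmces (0.985) and Ihh (0.984). For Ccl5 they were Zfp385a (0.958), Epb41l4b (0.941) and Cep350 (0.911), and for Ccl28 Mtpap (0.927), Ak7 (0.907) and S100g (0.889). The best match of the 2 chemokines with no call had a lower r than that of the other 5. Calls and r values come from the same 8 levels, so this is not a separate result. The kidneys share 4 groups and 1 slide.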

How the data were processed

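Left-kidney RNA (30 mg tissue, 50 ng RNA labelled with Cy3) of 8 mice was hybridised to 1-colour Agilent arrays, per the labels' protocols. The deposited scanner files were made by the authors in Agilent Feature Extraction (version 12.0.3.1 in the submitters' processing notes), and give a processed signal, a background-subtracted intensity per spot, with mean and background intensity and quality flags, per the file headers. The deposited value table holds a linear ratio per probe, used only as an alternative. Its values show every probe centred on its own median across the 8 arrays, and the direction follows from an r of 0.875 to 0.987 with the scanner values centred the same way, while any earlier scaling is unknown. Its column medians were 1.00 and 1.02 in mimic, 1.00 and 0.995 in control-miRNA, 0.998 and 0.998 in IRI and 1.00 and 0.992 in sham arrays. All value columns belong to a sample of the series, and 0 were left unused.

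Control spots and 79 to 127 outlier spots per array were left out. Levels were log2 processed signals less the 75th percentile of their array, averaged per probe. A probe was kept if 1 or more groups had it well above background on both arrays (32218 probes), and the brightest probe stood for its gene. Of 56605 probes 33762 were named through an accession, 9871 through a symbol and 310 through an older symbol of RefSeq (GRCm38.p6), and 12662 kept the file's name. Groups follow the sample titles. limma 3.58.1 in R 4.3.3 was fitted to all 8 arrays with a mean per group (6.84 degrees of freedom after moderation, the median over genes), with Benjamini-Hochberg adjustment over 21264 genes and a threshold of 0.05. Errors are moderated standard errors, and intervals are 95% and unadjusted. The number of arrays limits the precision. The fit was tested on simulated data.

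Alternatives were normexp with an offset of 50 and quantile normalization, quantile normalization alone, no filter, the mean over probes, array brightness as a covariate, the arrays of both groups only, the deposited table and leaving out each array. The genes named are the 7 chemokines, their receptors (1 is not reported here), up to 4 genes of each other list by smallest p and the 3 most similar genes per chemokine. The chemokines and gene lists were chosen with earlier results of these data known. The alternatives for genes outside the 7 were added after seeing the data.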

Additional observations from a re-analysis of the deposited data

How the results depend on the processing

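With groups of 2, most calls depended on single arrays. For the 7 chemokines over 6 comparisons, 268 values under the other settings kept direction and side of the threshold, 16 lost their call, 3 gained one and 7 reversed. Without 1 array 119 kept both, 23 lost their call, 4 gained one and 22 reversed. The causes were not tested, beyond fewer arrays or more genes tested.

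Genes called without the filter against sham numbered 2450 for IRI, 2278 for control miRNA and 3853 for mimic, and 11947 in mimic against IRI, where it moved the median of all genes to 0.50. Array brightness as a covariate left 1857 in IRI and 115 in mimic kidneys against sham and 0 in mimic against IRI, and it ended the calls of Ccl20 in IRI (5.02, adjusted p = 0.0629) and of Ccl2 (4.30, 0.187), Ccl7 (6.48, 0.213), Ccl12 (2.43, 0.255) and Cx3cl1 (0.80, 0.373) in mimic kidneys. Since the mimic arrays were the dimmest, this covariate partly stands in for the mimic group. With it, the SE of Ccl2 in mimic against sham went from 0.77 to 1.36. The arrays of both groups alone gave 6785 in IRI and 3039 in mimic kidneys against sham and 0 in mimic against IRI. Normexp gave 1400 in mimic against control miRNA and ended the Ccl7 call in mimic kidneys (1.07, 0.125), as did quantile normalization (3.85, 0.0626), the deposited table (3.85, 0.0626) and no filter (4.15, 0.0702). No filter also ended the Ccl2 call there (2.57, 0.0756). The Cx3cl1 call in control-miRNA kidneys was lost with quantile normalization (adjusted p = 0.0505), no filter (0.0929), the mean over probes (0.188), the deposited table (0.0504) and the arrays of both groups only (0.0578). Without 1 array the counts against sham ran from 801 to 1078 for IRI, from 694 to 2456 for control miRNA and from 1100 to 7338 for mimic, from 0 to 6318 in mimic against control miRNA and from 0 to 7534 in mimic against IRI, both highest without mimic mouse 6.

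Brightness reversed Ccl28 in IRI against sham (0.28) and in control miRNA against IRI (-0.56), and Cx3cl1 in mimic against control miRNA (-0.19). Cx3cl1 in mimic against IRI reversed with normexp (0.11), quantile normalization (0.12), the mean of its probes (0.38) and the deposited table (0.12). Reversals without 1 array gave these ranges. Against sham, Ccl5 in IRI kidneys ran from -1.68 to 0.18, and in control-miRNA kidneys Ccl12 from -0.030 to 0.20 and Ccl28 from -1.48 to 0.62. In mimic against control miRNA, Ccl2 ran from -0.68 to 2.01, Ccl5 from -1.42 to 0.32, Ccl7 from -0.66 to 3.48, Ccl20 from -1.48 to 0.62 and Ccl28 from -1.63 to 0.47. In mimic against IRI, Ccl5 ran from -1.19 to 0.68, Ccl7 from -0.037 to 1.11, Ccl28 from -1.09 to 0.085 and Cx3cl1 from -0.24 to 0.22. In control miRNA against IRI, Ccl2 ran from -0.96 to 1.73, Ccl5 from -0.64 to 1.23, Ccl7 from -2.94 to 1.20 and Ccl28 from -0.98 to 1.12.

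Outside the 7, in mimic against sham, Cx3cr1 reversed with normexp (-0.015), the mean of its probes (-0.37) and brightness (-0.96) and ran from -0.30 to 0.37 without 1 array, Ccr2 ran from -0.16 to 0.031, and Ccl4 was -0.13 with brightness. No paired analysis was possible because each kidney came from a different mouse. Mouse 1 of the sham group and mouse 1 of the control-miRNA group share only a number. A block for slide or scan time was not run, since all arrays share both. Signal strength limits Ccl7 and Ccr8 in both sham kidneys and Ccl20 in sham mouse 1, which were not well above background.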
